A study of Homo sapiens with 2 samples.

Results

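Small RNA was sequenced from 2 human cell lines, with 1 library each. K562 grows in suspension, derives from chronic myelogenous leukemia and carries the BCR-ABL1 fusion, and it was cultured with no drug named. K562/ADM is a stable derivative of it, selected in rising concentrations of the anthracycline adriamycin (ADM) and then kept in 1000 ng/mL of the drug, so that selection and the drug itself cannot be told apart. The miRs described here were listed as those of chromosome 14 outside the imprinted domain of 14q32, as a control for a change of the whole chromosome against one of the domain. They were found by name, from the stems miR-203, miR-342, miR-345, miR-624, miR-625 and miR-1247, which gave 11 of the 934 names of mature miRs in the deposited table, from 6 hairpins.

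MiRs are short RNAs cut from hairpin transcripts, and a hairpin can yield a miR from its 5p arm, its 3p arm or both. A miR finds its target mRNAs mainly through its seed, the bases 2 to 8 from its 5' end. Many miRs lie in introns of protein-coding genes and can be made from the transcript of that host gene. The DLK1-DIO3 domain at 14q32 is imprinted, so that its long noncoding transcripts and the large group of miRs within them are expressed from the maternal copy alone. MiRs elsewhere on the chromosome depend on other promoters.

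On GRCh37, whose coordinates are used throughout, DLK1 starts at position 101192042 of chromosome 14 and DIO3 ends at 102029789, a span of 838 kb. Of the 6 hairpins, 5 lie outside this span. MIR624 (chr14:31483852-31483948, minus strand) lies in an intron of STRN3, which encodes a regulatory subunit of protein phosphatase 2A, and MIR625 (chr14:65937820-65937904, plus strand) in an intron of FUT8, which encodes the enzyme that adds core fucose to N-glycans. MIR342 (chr14:100575992-100576090, plus strand) lies in an intron of EVL, which encodes an actin regulator of the Ena/VASP family, and ends 616 kb before DLK1. MIR345 (chr14:100774196-100774293, plus strand) lies between genes, 1.31 kb from SLC25A29, and ends 418 kb before DLK1. MIR203A (chr14:104583742-104583851, plus strand) lies between ASPG and KIF26A, 2.55 Mb after DIO3. The label of the group did not hold for MIR1247, whose hairpin was found by its sequence at chr14:102026624-102026759 on the minus strand. That position lies on the opposite strand within the span of DIO3, which encodes the deiodinase that inactivates thyroid hormone, and overlaps an exon of the lncRNA gene DIO3OS, so that this hairpin stands at the distal edge of the domain rather than outside it.

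The mature sequences of 8 of the 11 names were matched in RefSeq (GRCh38.p14) and are shown because these miRs carry the comparison, with the seed in capitals. The older names with an asterisk are given the arm they have now.

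miR-203 (now miR-203a-3p): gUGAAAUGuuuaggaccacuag
miR-342-3p: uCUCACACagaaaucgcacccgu
miR-342-5p: aGGGGUGCuaucugugauuga
miR-345 (now miR-345-5p): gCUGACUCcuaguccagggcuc
miR-624* (now miR-624-5p): uAGUACCAguaccuuguguuca
miR-624 (now miR-624-3p): cACAAGGUauugguauuaccu
miR-625* (now miR-625-3p): gACUAUAGaacuuucccccuca
miR-625 (now miR-625-5p): aGGGGGAAaguucuauagucc

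The 8 miRs had 8 different seeds, so that they do not form a seed family. The other names, mir-345*, mir-624* and mir-1247*, are spelled with a lower-case r and an asterisk, and the sources used here do not say what that marks. Mir-624* stands beside both named arms of its hairpin.

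The table held 7677738 reads for K562 and 6895193 for K562/ADM. The deposited values were scaled by library size factors, and whole reads were recovered from them. Names with 1 read, such as mir-345* in K562/ADM and mir-1247* in K562, do not follow from the study's omission of reads seen once, and their values are uncertain beyond counting error. The ratios below are of K562/ADM to K562 after that scaling, each with an exact 95% interval (Clopper-Pearson) that covers counting error only. A miR was called when it differed by at least 2-fold with an interval that excluded 1. With 1 library per line there was no replicate check, no test and no p-value, and the libraries rather than the conditions are compared. Of the list of blood cell miRs, 5 of 7 hairpins were in the table, all with reads. Together they stood at 60421 RPM (reads scaled to a table total of 1000000) in K562 against 86127 in K562/ADM. Most of their reads were of miR-142-3p, with 351692 in K562 and 507475 in K562/ADM. MiR-451, with 30470 and 19738 reads, and miR-486-5p, with 15723 and 10404, went the other way, so that the list did not rise as a whole. Of the markers of other tissues, the 6 epithelial hairpins stood at 125 RPM in K562 against 119 in K562/ADM, 3 neural ones at 1825 against 3682, 3 mesenchymal ones at 424 against 1087, 3 of muscle at 1.30 against 3.48 and 1 of liver at 0.521 against 0.580. The sums of the blood, neural, mesenchymal and muscle lists were thus higher in K562/ADM, and their part in the results below was not tested. The neural sum rose mainly with miR-9, at 7976 reads in K562 and 17882 in K562/ADM. The muscle list held 10 and 24 reads in all. In such bulk RNA, fewer cells with a miR and less of it per cell cannot be told apart.

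MiR-345 was the most abundant of the 11 names in both libraries and was lower in K562/ADM. MiR-342-3p, from a hairpin 198 kb away, was not lower. Of the 11 names, 4 were called lower, 0 were called higher and 7 were not called. Over all 934 names, 15.6% were called lower and 11.1% higher. Outside the 11 names and the imprinted domain, 7.58% of 831 names were lower and 12.5% higher. By fold alone, without the interval, 1 of the 11 names was higher, mir-1247*, beside 25.3% of all names. With the whole interval past 2-fold, miR-345 alone was lower, beside 11.1% of all names. The names called lower were miR-345, mir-345*, miR-203 and mir-624*, and 2 of these had at most 16 reads in both libraries together. Upper-quartile scaling shifted all log2 ratios upward by 0.74, and under it mir-345* alone was called lower and miR-342-3p, miR-342-5p, miR-624* and mir-1247* were called higher. Of all 934 names, that scaling called 10.2% lower and 23.9% higher. Under the other 4 scalings tried, the same 4 names were called lower and none higher. Those 4 scalings called 146 to 165 of all 934 names lower and 93 to 104 higher.

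**Figure D1:**
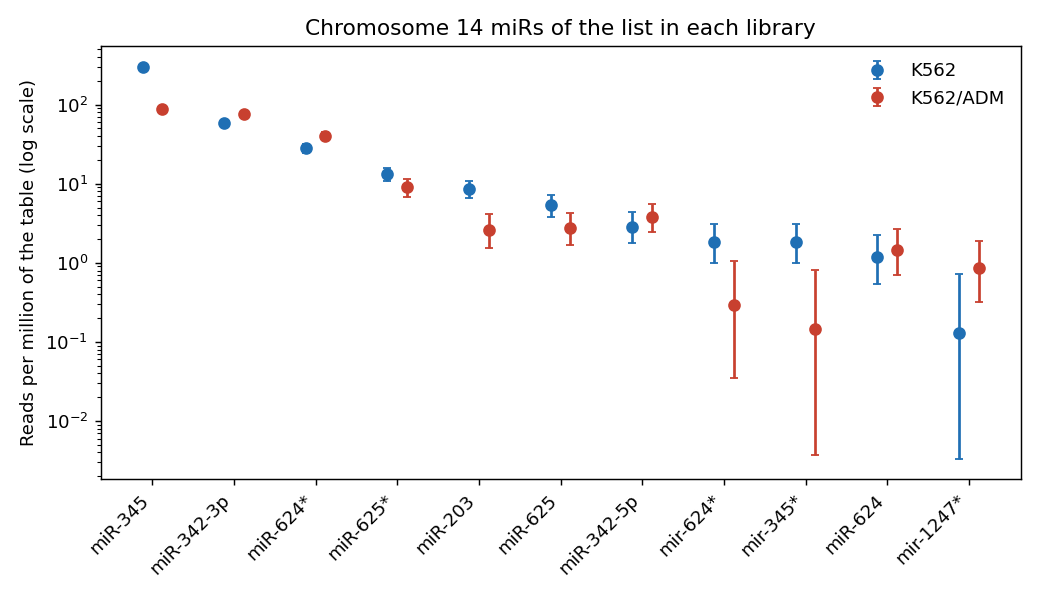
The y axis (log scale) gives RPM for each of the 11 names, blue for K562 and red for K562/ADM, with exact 95% counting intervals and 1 library per line. MiR-345 stands highest in both libraries, at 299.6 for K562 against 88.2 for K562/ADM, and the 3 names spelled mir lie below 2.

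MIR345 and MIR342 both lie upstream of the domain, 198 kb apart, with protein-coding genes between them. Among these, DEGS2 is the nearest after MIR342 and SLC25A29 the nearest before MIR345. MiR-345, which has been studied as a regulator of the drug transporter ABCC1, was read 2300 times in the K562 library and 608 times in that of K562/ADM, or 299.6 and 88.2 RPM. It ranked 89th among all names in K562 and 134th in K562/ADM. Its ratio was 0.324 (95% interval 0.296 to 0.354), that is 3.09-fold lower. Of 57 names with like abundance outside the domain, meaning reads in both libraries together within 2-fold of its own, 3 had a lower ratio. The second name of this hairpin, mir-345*, was seen in 14 reads of K562 and 1 of K562/ADM, with a ratio of 0.0875 (0.00207 to 0.575). Both names of the hairpin were therefore lower in K562/ADM, and the ratio of their ratios (3.70, 0.561 to 157) did not separate them.

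MiR-342-3p, a miR known from lymphoid and myeloid cells, was read 444 times in the K562 library and 523 times in that of K562/ADM, or 57.8 and 75.8 RPM. Its ratio was 1.44 (1.27 to 1.64), above 1 but short of 2-fold. MiR-342-5p, from the other arm, had 22 and 26 reads and nearly the same ratio, 1.45 (0.789 to 2.68). A comparison of 2 miRs within the libraries does not depend on the scaling. Relative to miR-342-3p, miR-345 fell to 0.224 of its K562 level (0.192 to 0.263). As a result miR-345 exceeded miR-342-3p widely in K562, with 2300 reads against 444, and only slightly in K562/ADM, with 608 against 523.

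MiR-624 and miR-625 come from introns far from the domain, and no named arm of either was called. MiR-624*, the main product of its hairpin, was read 217 times in the K562 library and 280 times in that of K562/ADM, a ratio of 1.58 (1.32 to 1.90). MiR-624, the minor arm, had 9 and 10 reads, for which the ratio was 1.36 (0.497 to 3.78). Mir-624* stood apart from both with 14 and 2 reads, a ratio of 0.175 (0.0193 to 0.762), which was called lower. Relative to mir-624*, miR-624* was 9.03-fold higher in K562/ADM (2.03 to 82.4), so that the names listed for this hairpin differed in ratio. MiR-625*, the more abundant arm of the hairpin in FUT8, had 101 and 62 reads and a ratio of 0.752 (0.539 to 1.04). MiR-625 had 41 and 19 reads and a ratio of 0.568 (0.311 to 1.0002), an interval whose upper end lay at 1. Both arms summed had 142 and 81 reads. With the scaling of the authors their ratio was 0.699 (0.525 to 0.924), below 1 but short of 2-fold.

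MiR-203, a miR of differentiating epidermis that is known to target ABL1, the kinase gene fused to BCR in K562, was read 66 times in the K562 library and 18 times in that of K562/ADM. This is 8.60 against 2.61 RPM, a ratio of 0.334 (0.187 to 0.569), or 2.99-fold lower. Of 124 names with like abundance, 5 had a lower ratio. Its hairpin lies on the other side of the domain from that of miR-345, and the ratio of ratios between them was 1.03 (0.572 to 1.77), an interval that holds equality and also a difference of 1.5-fold. Mir-1247*, at the distal edge of the domain, was seen in 1 read of K562 and 6 of K562/ADM, a ratio of 7.35 (0.891 to 338), which is not known closely enough to be called.

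**Figure D2:**
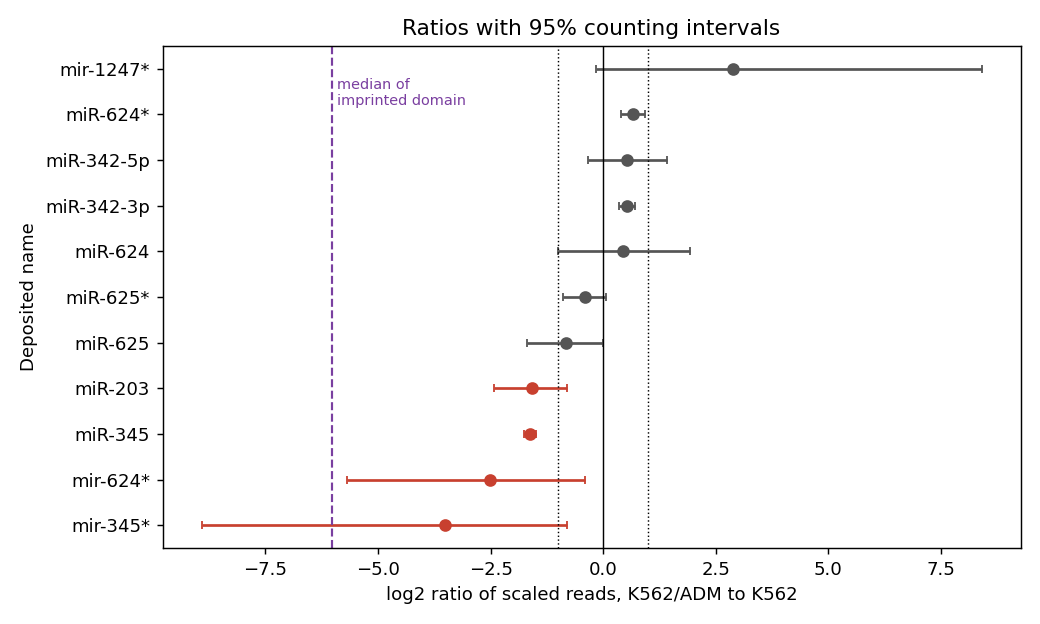
Log2 ratio of scaled reads in K562/ADM to K562 (x axis) for each name (y axis), with 95% counting intervals. Red marks the 4 names called lower, grey the others, the solid line equality, the dotted lines 2-fold and the dashed line the median of the imprinted domain at -6.02. The well-measured names fall on both sides of equality, and the intervals of mir-345* and mir-624* are wide.

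The names of the list did not share 1 ratio. The 10 names that reached 10 reads over both libraries form 45 pairs, and the 95% interval of the ratio of ratios excluded 1 in 24. With intervals widened for 45 comparisons (Bonferroni) it excluded 1 in 13, of which 4 involved miR-345. These pairs reuse names and arms of the same hairpin, and some of the 13 rest on the few reads of mir-345* or mir-624*. The share of such pairs among other names was not worked out, so that these counts do not set the list apart. MiR-345 was lower than miR-624* (0.205, 0.167 to 0.251), miR-342-3p and miR-625* (0.431, 0.307 to 0.609), and miR-203 was lower than miR-342-3p (0.232, 0.128 to 0.402) and miR-624* (0.211, 0.115 to 0.374). MiR-342-3p and miR-624*, whose hairpins lie far apart on the chromosome, could not be told apart by their counts (0.913, 0.730 to 1.14). In chromosomal order, the main names of MIR624, MIR625 and MIR342 were not called, that of MIR345 was lower, the name of MIR1247 was not called and that of MIR203A was lower.

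The share of each arm was close between the libraries. The 3p arm gave 95.3% of the reads of both arms of miR-342 in K562 (95% interval 92.9 to 97.0) and 95.3% in K562/ADM (93.1 to 96.9). In the miR-624 hairpin it was the 5p arm, listed as miR-624*, that gave 96.0% (92.6 to 98.2) and 96.6% (93.8 to 98.3). In miR-625 the 3p arm, listed as miR-625*, gave 71.1% (62.9 to 78.4) and 76.5% (65.8 to 85.2). The names with an asterisk, which once marked the minor strand, thus held most reads in the hairpins of miR-624 and miR-625. The 3p to 5p ratio changed between the libraries by 0.997 (0.530 to 1.86) in miR-342, 0.861 (0.309 to 2.44) in miR-624 and 1.32 (0.679 to 2.64) in miR-625, so that no change of arm use was detectable at this depth, and each interval holds a 1.5-fold rise.

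**Figure D3:**
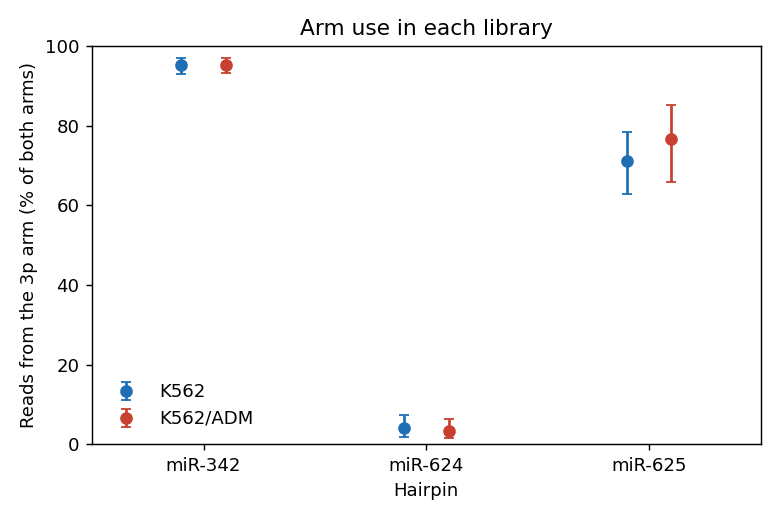
Share of reads from the 3p arm among reads of both named arms (y axis, percent) for the hairpins of miR-342, miR-624 and miR-625 (x axis), blue for K562 and red for K562/ADM, with exact 95% binomial intervals. The shares of the libraries overlap in each hairpin, from 3.98% and 3.45% in miR-624 to 95.3% in miR-342.

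Together the 11 names took 3229 reads in K562, or 0.0421% of the table (95% interval 0.0406 to 0.0435), and 1555 reads in K562/ADM, or 0.0226% (0.0214 to 0.0237). Their summed ratio was 0.590 (0.555 to 0.627). This sum rests on miR-345: its hairpin held 71.7% of the reads of the list in K562 and 39.2% in K562/ADM, and without miR-345 the other names came to 929 and 947 reads, a ratio of 1.25 (1.14 to 1.37). Among the 10 names with 10 or more reads, log2 ratios had a median of -0.61, with 6 below 0 and 4 above (0.13 under upper-quartile scaling), beside a main median of -0.08 over 604 names of the whole table and 0.09 over 518 names outside the list and the domain.

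The imprinted domain itself differed far more. Of its 92 names, 79 were called lower and 0 higher, and together they fell from 338224 to 4526 reads, 61.0-fold (59.3 to 62.9). Of its 57 names with at least 50 reads, all 57 were lower, from miR-493 at its upstream end, 37.4-fold lower (27.5 to 52.3), to miR-656 at its downstream end, 24.1-fold lower (6.38 to 204). MiR-381, its most abundant name, was 97.7-fold lower. MiR-381, with 149839 and 1252 reads, and miR-127-3p, with 103346 and 1658, held most reads of the domain in both libraries. The summed values of the domain therefore rest mainly on these names. The domain name with at least 50 reads that had the smallest fall was miR-1185, with a ratio of 0.0922 (0.0609 to 0.135). That is below the lowest ratio of the 6 listed names with at least 50 reads, the 0.324 of miR-345. Relative to the summed reads of the domain, the 11 names were 36.0-fold higher in K562/ADM (33.6 to 38.5). MiR-345 was 19.8-fold higher on this scale (18.0 to 21.7), miR-203 20.4-fold (11.4 to 34.8), miR-625* 45.9-fold (32.8 to 63.6), miR-342-3p 88.0-fold (77.1 to 100.5) and miR-624* 96.4-fold (80.3 to 116). MiR-345, from the listed hairpin closest upstream of DLK1, was thus lowered less than the domain as a whole. For mir-345* the interval held 1 (5.34, 0.126 to 35.1), and its fall could not be told from that of the domain at this depth. For mir-1247*, at the edge of DIO3, it was 448 (54.4 to 20624), from 7 reads in all.

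**Figure D4:**
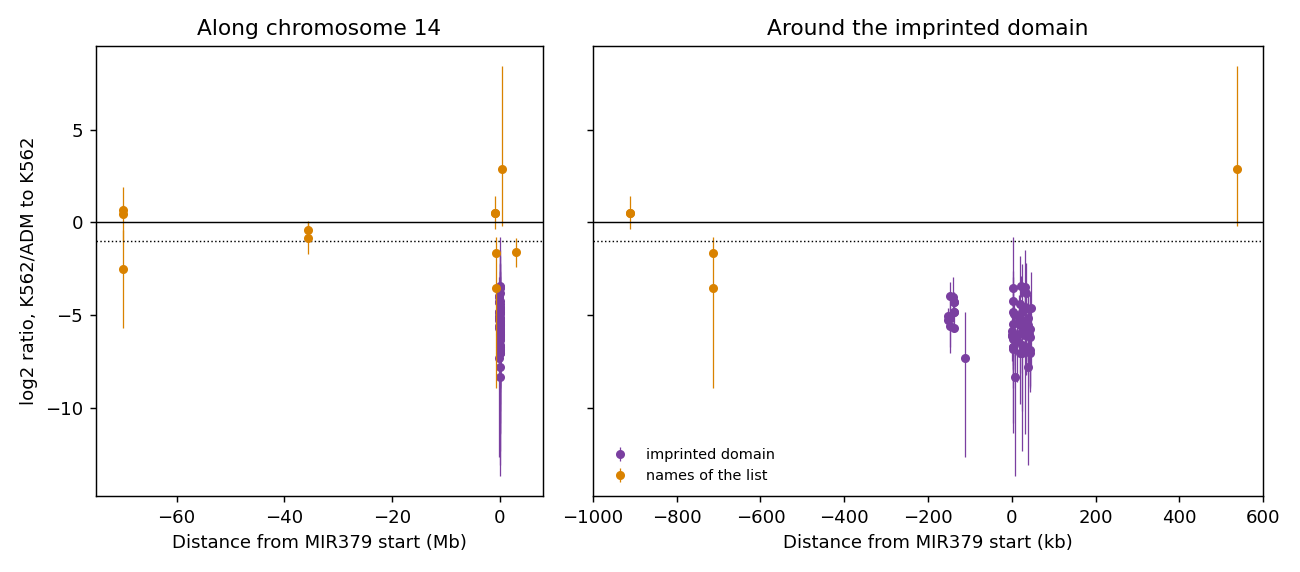
The y axis is the log2 ratio of K562/ADM over K562 and the x axis the distance of the hairpin from the start of MIR379, in Mb along the chromosome (left) and in kb around the domain (right), with 95% counting intervals. Orange points are the 11 names, purple points are 56 domain names with at least 10 reads, a position and reads in both libraries, a solid line marks equality and a dotted line 2-fold lower. The purple points lie between -8.33 and -3.44, and the orange points lie above them except mir-345* at -3.52.

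A further 5 names outside both groups have a stem that the RefSeq gene table places on chromosome 14 alone, and 0 of them were called. Stems that also have copies on other chromosomes were left out. MiR-3171, with 306 and 197 reads, had a ratio of 0.788 (0.656 to 0.946), and mir-3171*, with 183 and 218, one of 1.46 (1.19 to 1.79), while miR-1260, miR-548y and miR-3173 had at most 9 reads in both libraries together. Of the miRs that the study used in its PCR, miR-425 as the internal control and miR-16 as a negative control, neither was called, with a ratio of 1.09 (1.07 to 1.10) for miR-425 and 1.48 (1.45 to 1.51) for miR-16. The study picked miR-425 for its small difference in this same profiling, so that its ratio is no independent check. Against miR-425, miR-345 stood at 0.298 (0.272 to 0.326), miR-203 at 0.307 (0.172 to 0.524), miR-625* at 0.692 (0.496 to 0.959), miR-342-3p at 1.33 (1.17 to 1.51) and miR-624* at 1.45 (1.21 to 1.75). Against miR-16 the last pair came to 0.976 (0.857 to 1.11) and 1.07 (0.891 to 1.28), so that whether they were higher than a control depended on which was taken.

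For each of the 6 names with at least 50 reads, the name outside the list with the most similar scaled values was sought by distance on the log2 scale over the 2 libraries. These names were picked by their values in both libraries, so that their likeness in level and ratio is given as a description. MiR-345 was nearest to miR-1296, with 2024 and 580 reads, and miR-203 to miR-374b*, with 70 and 17. MiR-342-3p was nearest to mir-1277*, with 418 and 524 reads, and miR-624* to miR-766, with 276 and 300. MiR-625* was nearest to miR-30c-1*, with 105 and 67 reads, and miR-625 to miR-548s, with 39 and 19.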

How the data were processed

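One small RNA library of K562 and 1 of K562/ADM were sequenced. The study states that reads seen once were omitted. The authors removed the adapter and mapped the rest with Bowtie in miRanalyzer to miRBase 16. The submitters' processing notes also name CASAVA 1.7.0, DESeq and hg18. The deposited signal is the read count of each mature miR after division by a DESeq size factor, as computed by the authors. The table also holds fold changes, log2 fold changes and p-values of the authors, which were not used. The smallest positive value of a column was taken as 1 read, and on that scale 100% of 1868 values were whole within 0.05 reads. The size factors found in this way multiply to 1, as DESeq factors of 2 libraries do. On this scale 100 names of K562 and 124 of K562/ADM hold 1 read, which does not follow from the omission of reads seen once, and the origin of these values was not tested.

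The members and lists were chosen with earlier results of these data known. Every name whose stem is a member is reported. The other names given are the study's references, the most abundant, first and last names of the domain with at least 50 reads, other names of chromosome 14 and the name nearest to each member with at least 50 reads, along with miR-1185 and miR-127-3p, which were named after their values were seen. Ratios of ratios were given exact conditional intervals. With 1 library per line, variation between libraries of a line could not be estimated, and no count model was fitted here. Positions come from GENCODE on GRCh37, and each RefSeq hairpin was matched exactly to that genome at 1 place on chromosome 14, which also placed MIR1247. The intervals and calls were tested on simulated counts with counting error only, which the intervals assume. That test therefore says nothing on variation between libraries. Alternatives were 5 other scalings, read minimums, call rules and the members used. Leaving out miR-345 was chosen after seeing the data. Reads without molecular identifiers are not independent molecules. Analyses ran in R 4.3.3 with edgeR 4.0.16 (TMM, upper quartile) and in Python 3.11.15 with scipy 1.17.1, numpy 2.4.6, matplotlib 3.10.9 and pandas 2.3.3.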

Additional observations from a re-analysis of the deposited data

How the results depend on the processing

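The number of names called lower, 4 of 11 with the scaling of the authors, was 1 of 11 under upper-quartile scaling. It was 2 of the 6 names with at least 50 reads, and 2 of 6 with the more abundant arm of each hairpin. The share of all names called under these read and arm filters was not worked out. When the whole interval had to lie past 2-fold, 1 of 11 was lower, beside 11.1% of all names. The number called higher, 0 of 11 with the scaling of the authors, was 4 under upper-quartile scaling. By fold alone it was 1, beside 25.3% of all names. Over all 934 names, 146 were lower and 104 higher, against 95 and 223 under upper-quartile scaling. The summed log2 ratio of the 11 names, -0.76, was -0.90 under total counts, -0.019 under upper-quartile scaling, -0.87 with the median of ratios without the imprinted domain and -0.88 with miR-425 set equal. It turned to 0.32 without miR-345, and the ratio of ratios against the domain rose from 36.0 to 76.2. Without miR-378, the most abundant name, the share of reads was 0.0852% in K562 and 0.0480% in K562/ADM. Of 46 alternatives for these results, 32 stayed within 1.5 times a count or within the interval of the value. For the median log2 ratio that interval, -2.52 to 0.53, is not a counting interval. It was taken from the ranked ratios of the 10 names, which are not replicates. It holds every alternative, also the change of sign to 0.13 under upper-quartile scaling, and so says little about how stable the median is. Leaving out miR-1247 moved none of these results past their limits. For single names, 5 of 55 values moved past their interval. No paired analysis was possible because each line has 1 library. Depth limits mir-345*, mir-624* and mir-1247*, with at most 16 reads each, and differences between libraries of 1 line are not known.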
